A study of Arabidopsis thaliana with 28 samples.

Results

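The comparison described here set 4 samples of warm-grown Arabidopsis thaliana that overexpressed full-length CBF2 (CBF2OX) against 4 samples of warm-grown plants that overexpressed CBF2Δc, a form of CBF2 that lacks its C-terminal part. These 8 samples were picked by their titles, out of 28 in the series. All were the aerial parts of Ws-2 seedlings that had grown for 11 d at 22 °C under continuous light (about 100 µmol m-2 s-1). CBF2OX was represented by lines E2 (replicates 1 and 2) and E24 (replicates 3 and 4), and CBF2Δc by lines DN89 (replicates 1 and 2) and DN96 (replicates 3 and 4). A construct effect therefore rests on 2 lines with 2 samples each. The promoter behind the constructs and the pooling of plants were not given in the sources used here, so the p-values cover only how much these samples vary. The remaining 20 samples served as a setting for the result: 4 each of Ws-2 wild type kept warm, warm CBF1OX (lines G5 and G39) and CBF3OX (lines A28 and A30), and 4 each of wild type and CBF2Δc given 24 h at 4 °C in about 35 µmol m-2 s-1 of light. The comparison asks which transcript differences go with the C-terminal part of CBF2 when either form is highly expressed.

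The CBF proteins belong to the AP2/ERF family of transcription factors, and plants make them within hours of meeting low, non-freezing temperature. Their DNA-binding domain recognises the CRT/DRE element in the promoters of cold-responsive genes, and the C-terminal part of the proteins carries the transcription-activating function. Among their best-known targets are COR genes, whose small, very hydrophilic products protect membranes and enzymes of freezing leaves, and overexpression of a CBF switches on many of these genes without cold.

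All levels are log2 values per probe set. A feature is a named gene, measured by its brightest probe set, or a probe set to which the annotation gave no gene or several, which is kept under its own identifier and called unnamed. A feature is called where limma's moderated test, with Benjamini-Hochberg adjustment over all 14578 features tested, gave an adjusted p below 0.05 and the difference was at least 2-fold. Errors after levels are SDs (n = 4) and errors after differences are standard errors of the fit. In whole aerial parts, a change in the share of a cell type and a change in RNA per cell cannot be told apart.

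No named probe set measured the CBF genes. An unnamed probe set was used in their place and is called the CBF2 construct probe set here. It was picked because earlier results of these data showed it high in plants labelled as carrying a CBF2 form. That it was high in these plants is therefore no check of the constructs, and which transcript it measures was not tested. Its level was 12.19, 11.66, 11.51 and 11.85 in the CBF2OX samples and 12.91, 13.15, 13.55 and 13.58 in the CBF2Δc samples, against 3.12 to 3.63 in warm wild type. Every CBF2Δc sample lay above every CBF2OX sample. The means were 11.80 ± 0.29 and 13.30 ± 0.32, a difference of -1.5 ± 0.27 (limma adjusted p = 0.000801), so the signal was 2.82-fold higher in the plants with the truncated form. The probe set does not tell endogenous from introduced transcript, and protein was not measured. The probe sets that were high in CBF1OX and in CBF3OX plants lay at 2.19 to 2.30 and at 3.50 to 4.47 in these 8 samples. The gene for Rubisco activase, RCA, a leaf marker, lay at 13.39 to 13.67 in CBF2OX and 13.62 to 13.77 in CBF2Δc. Of 3 root marker genes none was called. EXPA7 and EXPA18 lay near or under the detection level of 4. PYK10, a beta-glucosidase gene of ER bodies, was high in either group (11.27 to 11.98 and 11.21 to 12.32), and the source of its signal was not tested. Samples of a group correlated at 0.986 to 0.995 for CBF2OX and at 0.991 to 0.996 for CBF2Δc, and no sample stood apart.

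**Figure D1:**
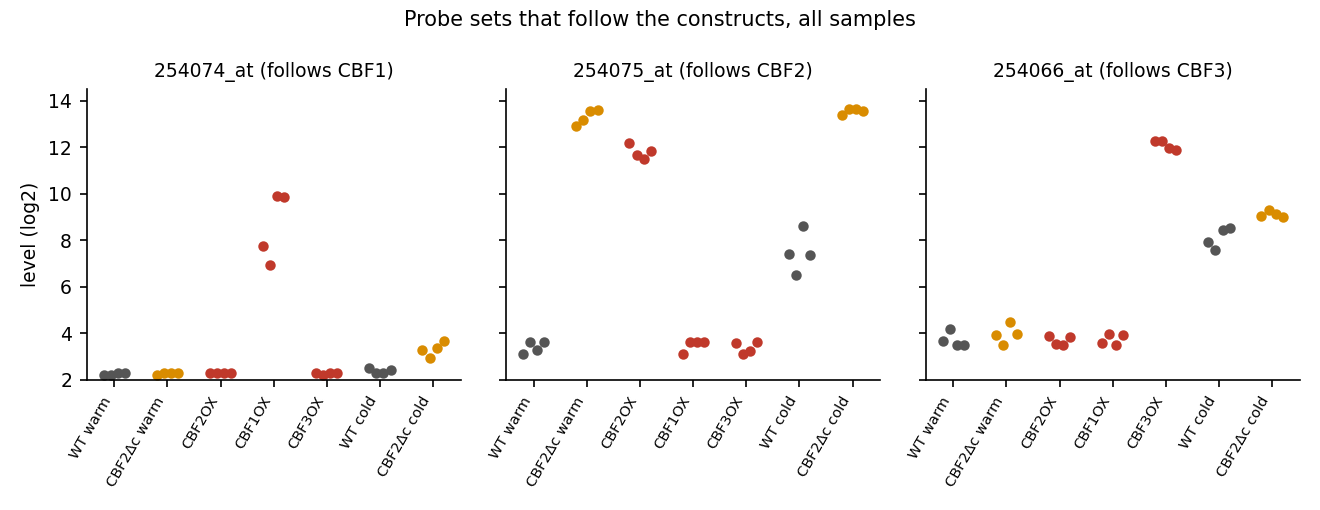
Level (log2) of 3 unnamed probe sets in all 28 samples, by group; each point is 1 sample. The probe set in the middle panel was high in CBF2OX and in warm and cold CBF2Δc plants, with warm CBF2Δc samples (12.91 to 13.58) above CBF2OX samples (11.51 to 12.19), while those on the left and right were high in CBF1OX and CBF3OX.

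CBF2OX plants had higher levels of COR15A, COR15B, LTI30 and COR47 than CBF2Δc plants, and lower levels of a smaller set that holds defensin genes. Of 14578 features, 248 were higher in CBF2OX than in CBF2Δc plants (1.70%) and 114 were lower (0.782%), 362 in all (2.48%). With the 2 line means of each construct taken as the samples, 88 were higher and 13 lower. Named genes made up 122 of the 248 and 41 of the 114. The difference was at least 4-fold for 69 of the features that were higher and 19 of those that were lower, and at least 16-fold for 13 and 1. Large differences thus lay mostly on the side of CBF2OX. The samples of the groups did not overlap for 240 of the 248 and 100 of the 114, where 5.32% of all features had every CBF2OX sample above and 5.71% had every one below. The calls were made on these samples, so nothing more is read from that count. The lower set includes the CBF2 construct probe set itself.

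**Figure D2:**
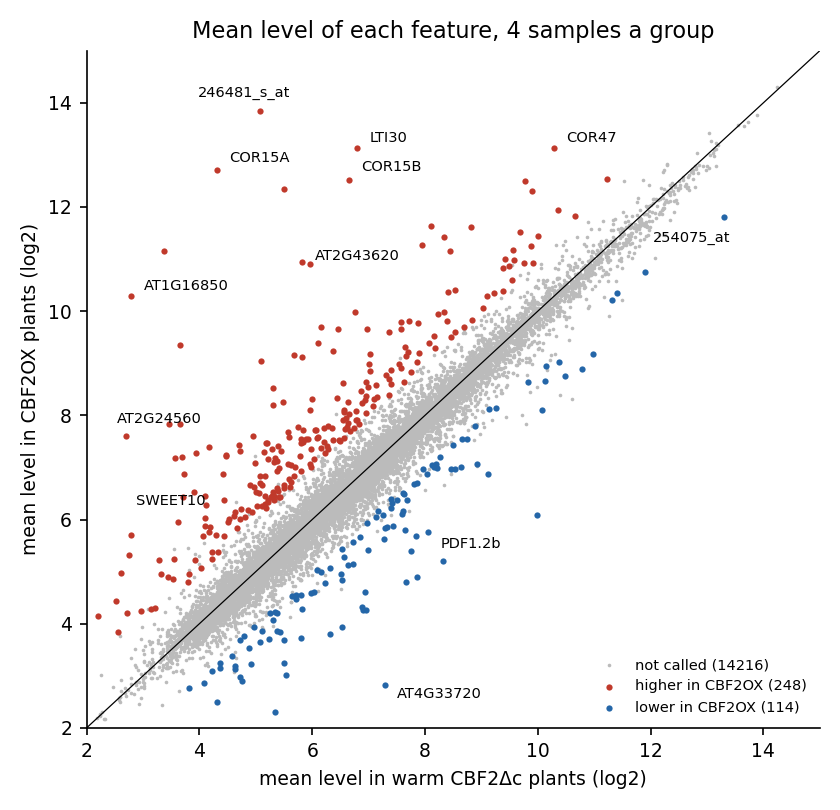
Mean level of each of 14578 features in warm CBF2Δc plants (horizontal, log2) and in CBF2OX plants (vertical, log2), 4 samples a group; the line marks equal levels. The 248 features called higher in CBF2OX (red) reach farther from the line than the 114 called lower (blue), and the CBF2 construct probe set at the upper right is among the latter.

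Warm wild type, which entered neither side of the comparison, lay with the CBF2Δc plants. Over the 248 features that were higher, the median level was 7.60 in CBF2OX, 5.82 in CBF2Δc and 5.90 in wild type. Over the 114 that were lower it was 5.4, 7.06 and 6.84. The wild-type mean was closer to the CBF2Δc mean than to the CBF2OX mean for 237 of the 248 and 109 of the 114. CBF2Δc plants were within 2-fold of wild type for 241 and 109, and the 95% interval of that difference lay wholly inside 2-fold for 153 and 74. Across all features CBF2Δc differed from warm wild type at 2 higher (0.0137%) and 1 lower (0.00686%), and CBF2OX at 249 higher (1.71%) and 115 lower (0.789%). The CBF2 construct probe set was 1 of the 2 higher in CBF2Δc (by 9.89) and was among the 249 higher in CBF2OX (by 8.39). Without replicate 3 of CBF2Δc the 2 higher calls became 1, and with line DN96 alone CBF2Δc gave 12 higher and 34 lower. These comparisons share the CBF2OX, CBF2Δc or wild-type samples with each other, so their values are set side by side and no agreement is drawn from them. For 31 of the 248 the CBF2Δc mean was under 4, and for 29 of the 114 the CBF2OX mean was. The fold changes of those features depend on the background level that the normalization leaves.

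The classical CBF targets had the largest median difference of the gene lists examined. The list held 13 entries, of which 5 had a named probe set. COR15A, COR15B, LTI30 and COR47 were higher in CBF2OX, as were 1.70% of all features, and STZ was not called. The median difference over the 5 was 5.88, beside -0.03 over all features. The list was written with earlier results of these data known, so its rank among the lists is not read as a result. COR15A, whose product protects the chloroplast from the stroma side in the cold, was at 13.26, 12.41, 12.35 and 12.83 in CBF2OX and at 4.29, 4.29, 4.40 and 4.27 in CBF2Δc. Its CBF2Δc values were those of a gene near background, and all CBF2OX values were near the top of the scale. The difference was 8.40 ± 0.25 (limma adjusted p = 1.3e-18), and wild type was at 4.46 ± 0.36. Its chromosomal neighbour COR15B, whose product has the same kind of role, was at 12.67, 12.39, 12.36 and 12.69 in CBF2OX and at 6.63, 6.70, 6.43 and 6.83 in CBF2Δc. The groups were far apart with little spread in either, a difference of 5.88 ± 0.20 (adjusted p = 4.31e-17), and wild type lay at 6.34 ± 0.36.

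The dehydrin genes LTI30 and COR47 followed the same order of levels with more spread among CBF2Δc samples. Dehydrins are disordered, water-binding proteins that accumulate in cold and dry cells. LTI30 was at 13.52, 13.14, 12.92 and 12.94 in CBF2OX and at 7.59, 7.10, 6.32 and 6.19 in CBF2Δc, where the line DN89 samples were the higher ones. The difference was 6.33 ± 0.40 (limma adjusted p = 3.3e-11), or 80.4-fold. Warm wild type was at 8.46, 7.85, 8.10 and 8.17, above every CBF2Δc sample. CBF2Δc minus wild type was -1.34 with a 95% interval of -2.17 to -0.52, but the adjusted p over all features was 0.498 and the gene was not called there. COR47, already high without cold, was at 13.36, 13.23, 12.91 and 13.04 in CBF2OX and at 10.72, 10.45, 10.30 and 9.68 in CBF2Δc. The groups did not overlap, and the difference was 2.85 ± 0.26 (adjusted p = 3.47e-08), or 7.20-fold. STZ, a zinc-finger repressor gene induced early in cold, lay at 3.88 to 4.49 in CBF2OX and 3.88 to 4.71 in CBF2Δc, with overlapping samples and a difference of -0.19 (95% interval -0.80 to 0.43). It differed from warm wild type by 0.24 in CBF1OX and 0.32 in CBF3OX, called in neither, and by 3.21 in cold wild type. Of other dehydrin and LEA genes, 2 were tested and neither was called. DI21 differed by 0.83 with overlapping samples and LEA4-5, a late embryogenesis abundant gene, was near background in either group (means 3.06 and 3.11).

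**Figure D3:**
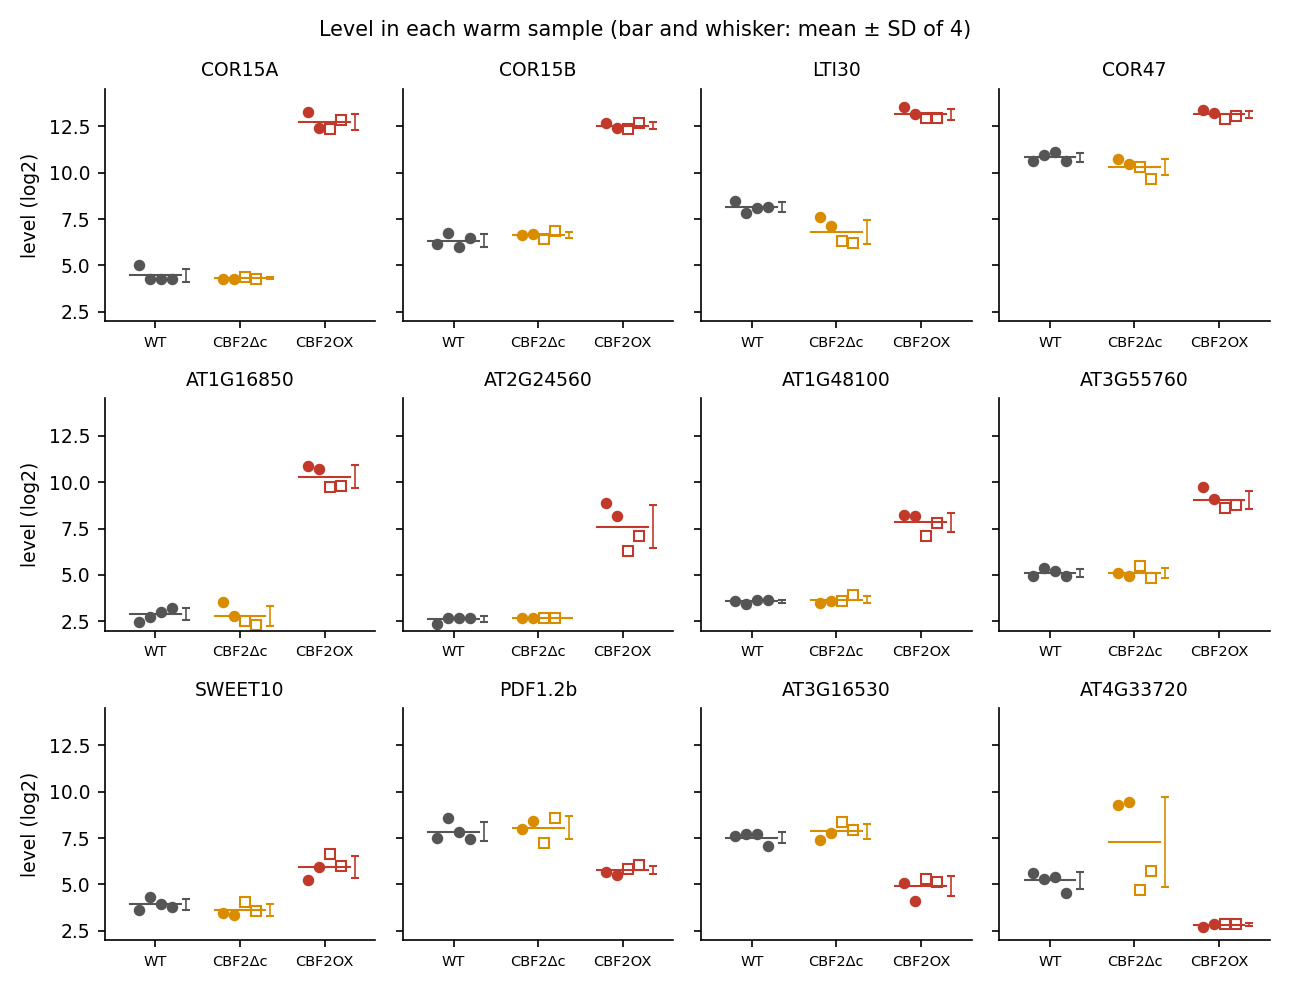
Level (log2) of 12 named genes in each of 4 warm wild-type (grey), CBF2Δc (orange) and CBF2OX (red) samples; filled circles are wild type and lines DN89 and E2, open squares lines DN96 and E24, and bars with whiskers are the mean ± SD of 4. CBF2Δc points lie beside the wild-type points for most genes, with LTI30 below them and the DN89 points of AT4G33720 far above.

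Most of the other genes with the largest differences carry only a locus name here, and the family given for each is background knowledge. AT1G16850 was at 10.89, 10.73, 9.72 and 9.81 in CBF2OX and at 3.56, 2.78, 2.52 and 2.32 in CBF2Δc, a difference of 7.49 ± 0.66 (limma adjusted p = 2.14e-08). In CBF2OX the line E2 samples were above the E24 samples, by 1.04. AT2G43620, of the chitinase family, was at 11.58, 10.86, 11.14 and 10.16 against 5.86, 5.02, 6.46 and 5.94, a difference of 5.12 ± 0.56. AT2G24560, a GDSL-type esterase/lipase gene, stayed at 2.69 in all CBF2Δc samples, near the background level, and was at 8.87, 8.17, 6.30 and 7.09 in CBF2OX. Its difference was 4.92 ± 0.75, with E2 above E24 by 1.82. AT1G48100, of the polygalacturonase family of pectin-cutting enzymes, was at 8.22, 8.18, 7.11 and 7.79 against 3.50, 3.61, 3.58 and 3.93 and differed by 4.17 ± 0.50. The adjusted p-values of these 3 genes were 1.06e-06, 0.000131 and 4.82e-06, and none had overlapping groups. The remaining genes among the 15 with the highest differences were AT3G55760, AT1G80130, AT1G51090, AT1G68500, AT3G17130, AT3G55940 and AT5G13200. Their differences ran from 2.88 to 3.94 with no overlap between groups. They include a phospholipase C family gene (AT3G55940, 2.91 ± 0.41), an invertase or pectin methylesterase inhibitor family gene (AT3G17130, 3.22 ± 0.54) and a GRAM-domain gene (AT5G13200, 2.88 ± 0.32).

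The unnamed probe sets with the highest differences were 246481_s_at and 264511_at. The former was at 14.07, 13.70, 13.66 and 13.93 in CBF2OX and at 7.17, 5.42, 3.96 and 3.77 in CBF2Δc, a difference of 8.76 ± 0.48 (limma adjusted p = 1.08e-12). It was also the 1 feature called lower in CBF2Δc than in warm wild type, where its samples lay at 8.87 to 9.04, a difference of -3.86 (adjusted p = 0.000134), a call that was lost when only these groups were fitted. DN89 was above DN96 by 2.43. Probe set 264511_at was at 10.60 to 11.38 in CBF2OX and at 3.09 to 3.90 in CBF2Δc and differed by 7.79 ± 0.61. It lay at 2.95 to 3.23 in wild type, under the detection level of 4, so a lower level in CBF2Δc plants could not show there.

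Of 11 sugar transporter genes tested, 2 were higher and 2 lower in CBF2OX, with a median of -0.34, and of 4 starch genes 1 was higher, where 1.70% of all features were higher and 0.782% lower. Lists this short allow no reading of the group, and the values of the members follow. SWEET10, a member of the SWEET family of sugar efflux carriers, was at 5.22, 5.95, 6.65 and 6.0 in CBF2OX and at 3.45, 3.37, 4.07 and 3.59 in CBF2Δc. The groups did not overlap and the E24 samples were not the lower ones, unlike for most genes above. The difference was 2.34 ± 0.29 (limma adjusted p = 8.53e-06). SWEET1 was at 8.04, 7.89, 7.37 and 7.64 against 6.65, 6.33, 6.72 and 6.63, a difference of 1.15 ± 0.29 (adjusted p = 0.0179) whose call was lost without replicate 1 or 2 of CBF2OX or replicate 2 of CBF2Δc. SWEET11, which takes part in loading sucrose into the phloem of leaves, was lower in CBF2OX, at 10.31, 10.12, 10.50 and 10.47 against 11.34, 11.29, 11.53 and 11.47. Its difference was -1.06 ± 0.17 (adjusted p = 0.000343), and the call was lost without replicate 2 of CBF2OX. SWEET16, a vacuolar carrier, was at 3.52, 3.19, 4.25 and 4.13 against 4.51, 5.20, 4.5 and 4.92 and sat at the edge of the rule (-1.01 ± 0.27, adjusted p = 0.0252). It was not called under 14 of 24 alternative settings, 4 of them the loss of a single sample (replicates 1 or 2 of CBF2OX, or 2 or 4 of CBF2Δc). SWEET13 differed by 1.46 ± 0.56 without being called; line E2 was at 6.67 and 7.01 and E24 at 3.54 and 4.94. AT3G55760, on the starch list, was at 9.71, 9.07, 8.61 and 8.78 in CBF2OX and at 5.11, 4.93, 5.49 and 4.86 in CBF2Δc. Wild type was at 5.10 ± 0.21, the CBF2Δc mean at 5.10 ± 0.28, and the difference between the CBF2 forms was 3.94 ± 0.34 (adjusted p = 1.6e-08). The starch synthesis genes APL3 and APL4 were near or under 4 in either group and were not called.

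Of 18 expansin and XTH genes tested, 1 was higher and 1 lower, beside 1.70% and 0.782% of all features, and the median was -0.08. Counts of 1 are near those shares and are not read as a result about wall genes. XTH20, of the xyloglucan endotransglucosylase/hydrolase family that cuts and rejoins wall glucans, was at 7.98, 8.33, 6.62 and 7.22 in CBF2OX and at 5.90, 6.15, 6.04 and 5.62 in CBF2Δc. E2 was above E24 by 1.24, and the difference of 1.61 ± 0.43 (limma adjusted p = 0.0251) was not called under 10 of 24 alternatives, 5 of which left out a single sample (replicates 1 or 2 of CBF2OX, or 1, 3 or 4 of CBF2Δc). The expansin-like gene EXLB1 was at 4.87, 4.64, 5.55 and 4.89 against 6.12, 5.94, 6.72 and 5.84, a difference of -1.17 ± 0.26 (adjusted p = 0.00577), not called without replicate 3 of CBF2Δc. EXLA2 was 1.42 higher without overlap but was not called (adjusted p = 0.0788).

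Of 14 entries on the defence and jasmonate list 2 had a named probe set, and both, the plant defensin genes PDF1.2 and PDF1.2b, were lower, against 0.782% of all features. Defensins are small secreted antimicrobial proteins, and PDF1.2 is a common readout of jasmonate and ethylene signalling. PDF1.2b was at 5.67, 5.53, 5.83 and 6.04 in CBF2OX and at 7.98, 8.44, 7.22 and 8.57 in CBF2Δc. Its groups did not overlap, and the difference was -2.28 ± 0.27 (limma adjusted p = 3.65e-06), or 4.87-fold. PDF1.2 was at 5.18, 5.71, 5.31 and 5.53 against 6.87, 6.53, 6.35 and 6.33, a difference of -1.09 ± 0.23 (adjusted p = 0.00422) that was not called without replicate 1 of CBF2Δc. The defensin family has near-identical copies, and the array may not separate these members fully. The genes that follow came from the 15 lowest and from no list. AT3G16530, a lectin family gene, was at 5.09, 4.09, 5.28 and 5.13 against 7.38, 7.79, 8.37 and 7.92, a difference of -2.97 ± 0.26 (adjusted p = 2.14e-08). AT5G59670, a leucine-rich-repeat kinase gene, was 2.08 lower on the log2 scale (-2.08 ± 0.29) and AT2G41090, a calmodulin-like gene, 1.90 lower (-1.90 ± 0.41).

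The largest difference on this side was that of AT4G33720, a gene of the PR-1-like family of secreted proteins. It was at 2.70, 2.86, 2.86 and 2.86 in CBF2OX, near the background level, and at 9.28, 9.42, 4.69 and 5.75 in CBF2Δc. The DN89 samples were 4.13 above the DN96 samples, and warm wild type at 5.62, 5.30, 5.41 and 4.54 lay with DN96. The root marker PYK10 was also higher in DN89 (12.30 and 12.32) than in DN96 (11.21 and 11.43), by 0.99 (adjusted p = 0.0264), EXPA7 differed by 1.08 and EXPA18 by 0.46 without passing the test, and their part in the result was not tested. The difference of -4.46 ± 0.77 (limma adjusted p = 0.000528) therefore held a line difference as well, and its call was lost where line means were taken as samples. CBF2OX minus wild type was -2.40 for this gene. For 4 others line E2 was well below E24. AT3G16670, of the Ole e 1 family, was at 3.32 and 3.59 in E2 and at 6.54 and 7.37 in E24, against 7.70 to 8.72 in CBF2Δc (-3.12 ± 0.91, adjusted p = 0.0412). Its call was lost under 14 of 24 alternatives, 6 of them the loss of a single sample (replicates 1 or 2 of CBF2OX, or any of CBF2Δc). AT1G67860 (-2.32 ± 0.58), AT1G23130 (-1.96 ± 0.49) and AT4G33666 (-1.73 ± 0.41) were also lower in E2 than in E24, by 2.33, 1.34 and 1.44, and lost their call without replicate 1 or 2 of CBF2OX. The remaining 6 named genes among the 15 lowest were AT3G46490, AT1G80280, AT1G66800, AT1G52770, AT1G31690 and AT5G22580, with differences from -1.68 to -1.39. Of these, AT1G66800 and AT1G31690 each lost their call in 6 of the 8 fits that left out a single sample, without replicates 1, 2 or 4 (AT1G66800) or 1, 2 or 3 (AT1G31690) of CBF2OX, or 1, 2 or 3 of CBF2Δc. Unnamed probe sets 256766_at and 245265_at were lower by -3.90 and -3.04 on the log2 scale.

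The other lists held no called gene, beside 2.48% of all features called, and in lists this small nothing is read from that. None of 67 plastid-encoded genes was called (median -0.05), and none of 11 nuclear photosynthesis genes (median 0.02), 11 glutathione transferase genes (median -0.33), 10 cytochrome P450 genes (median -0.07) or 7 ATG8 autophagy genes (median 0.06). Their ranges stayed inside 2-fold in either direction, with CYP71B36 lowest among the P450 genes at -0.94 (limma adjusted p = 0.000613). None of 3 clock-related genes was called. GIGANTEA (GI), a clock and flowering-time gene, was 0.82 higher without overlap (7.45 to 8.05 against 6.72 to 7.0, adjusted p = 0.0064) but under 2-fold. None of 6 genes on the list of stress regulators and protein quality control was called either. On that list TIL, the temperature-induced lipocalin, was 0.96 higher without overlap (9.41 to 10.01 against 8.53 to 8.83, limma adjusted p = 0.000468). Neither of 2 gibberellin receptor genes was called, nor any of 3 genes of the anthocyanin and flavonol pathway. AT5G38710, the 1 tested gene on the list for galactinol, raffinose and proline, was not called either (-0.19). That list allows no reading of the synthesis of these compounds.

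The next question was whether the truncated form moved any of these features at all in warmth. Among called named genes, the differences of CBF2Δc from wild type that pointed towards CBF2OX were largest for AT2G43620 (0.78), AT1G68500 (0.76), AT2G27830 (0.72) and SWEET1 (0.67) among those higher in CBF2OX, and for AT1G31690 (-1.11) among those lower. None was called. SWEET1 had every CBF2Δc sample (6.33 to 6.72) between wild type (5.68 to 6.09) and CBF2OX (7.37 to 8.04). Differences of named genes that pointed away from CBF2OX were 2.07 for AT4G33720, -1.34 for LTI30, -1.05 for AT4G30830, -1.0 for AT4G30460, a glycine-rich protein gene, and -0.90 for AT5G07030, an aspartyl protease family gene. None of these was called either, whereas the unnamed 246481_s_at was (-3.86). Wild type was closer to CBF2OX than to CBF2Δc for 11 of the 248 and 5 of the 114. The named genes among them were AT5G67490, AT4G30830, AT4G30460, AT4G20480 and AT3G22240 on the higher side and AT3G55710 on the lower. In AT4G30460, CBF2OX was 0.41 above wild type and CBF2Δc 1.0 below it, and the difference between the CBF2 forms was 1.41 ± 0.30 (limma adjusted p = 0.00493). The 1 named gene called in CBF2Δc against wild type was AT1G49740. It was at 6.62, 6.68, 7.13 and 6.92 in CBF2Δc, at 5.51 to 5.92 in wild type and at 5.67 to 6.01 in CBF2OX. CBF2Δc was 1.1 above wild type (adjusted p = 0.000197), while CBF2OX minus CBF2Δc was -0.96 ± 0.14 (adjusted p = 8.49e-05), which missed the 2-fold rule. With only CBF2Δc and wild type fitted, or without replicate 3 of CBF2Δc, 1 feature was called higher in place of 2. The other of the 2, the CBF2 construct probe set, differed by 9.89, so the call of AT1G49740 was the weaker one.

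The features found in the 8 samples were then read in samples that had no part in finding them. Warm CBF1OX and CBF3OX plants and cold wild type were each compared with warm wild type, and cold CBF2Δc with cold wild type. None of the 8 samples enters these comparisons, although the spread was estimated over all 28 samples and the 3 comparisons with warm wild type share it. Of the 248 features higher in CBF2OX, 170 rose in CBF1OX (68.5%, against 1.80% of all features) and 185 in CBF3OX (74.6%, against 1.94%), and none fell in either. They made up 64.6% of all features that rose in CBF1OX and 65.4% of those that rose in CBF3OX. Their median log2 difference from wild type was 1.37 and 1.41, beside 0.01 and 0.00 over all features. Of the 114 that were lower, 45 fell in CBF1OX (39.5%, against 0.727%) and 80 in CBF3OX (70.2%, against 1.66%), and none rose. CBF1OX counts leaned on line G39: without replicate 3 or 4 of CBF1OX, 103 or 98 of the 248 rose and 14 or 13 of the 114 fell. Without replicate 2, of line G5, 69 fell, and without any of the 4 warm wild-type samples 23 to 28 did. With CBF1OX and wild type fitted alone, 24 rose and 4 fell.

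Cold wild type, which also had dimmer light and was older by the time of treatment, shared part of this. Of the 248, 160 rose in cold wild type (64.5%, against 8.73% of all features) and 9 fell (3.63%, against 9.67%). The 160 were 12.6% of all features that rose in the cold. Of the 114, 54 fell (47.4%, against 9.67%) and 6 rose, among them the CBF2 construct probe set. COR15A, COR15B, LTI30 and COR47 rose by 7.70, 5.84, 5.36 and 2.64 in cold wild type. PDF1.2b differed by -0.48 and PDF1.2 by -0.52 in the cold, beside -2.12 and -1.01 in CBF1OX and -2.10 and -0.98 in CBF3OX. SWEET10 differed by 0.22 in CBF1OX, 0.41 in CBF3OX and 0.09 in the cold and was called in none. Whether CBF2OX differs from the other overexpressors there was not tested. Some genes higher in CBF2OX fell in cold wild type, as the following, chosen after their values were seen, show. AT5G59080 was 2.15 higher in CBF2OX than in CBF2Δc and fell by 2.06 in the cold, and the peroxidase gene AT5G64120 was 1.52 higher and fell by 3.56.

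**Figure D4:**
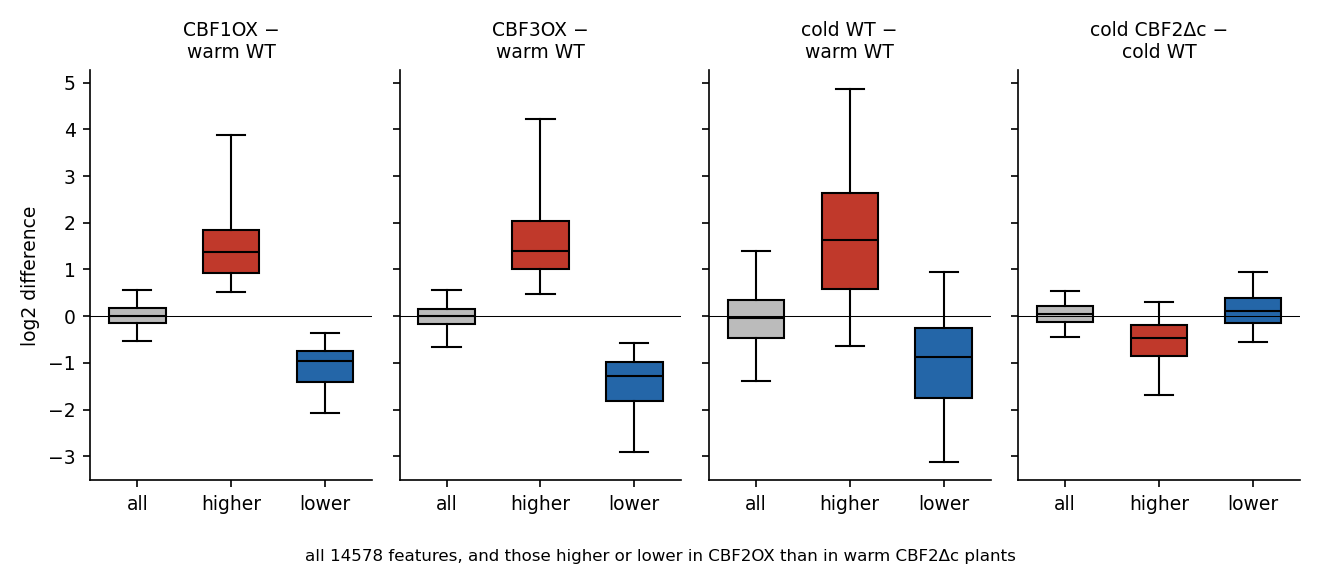
Log2 differences in 4 comparisons that use none of the 8 samples, for all 14578 features (grey) and for the 248 higher (red) and 114 lower (blue) in CBF2OX than in warm CBF2Δc; boxes span the quartiles with the median, and whiskers the 5th to 95th percentile. The red medians are 1.37, 1.41 and 1.63 in the first 3 comparisons and -0.48 in cold CBF2Δc minus cold wild type.

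Cold CBF2Δc plants, from the same DN89 and DN96 lines, gave a reading of the truncated form while the wild-type genes were induced. Of the 248, 37 were lower in cold CBF2Δc than in cold wild type (14.9%, against 0.446% of all features), and none was higher. They were 56.9% of the 65 features that were lower there, and the median over the 248 was -0.48, beside 0.04 over all features. The lowest among named genes was AT3G55940, which reached 4.20 above warm level in cold wild type and was 3.68 lower in cold CBF2Δc (limma adjusted p = 1.03e-05). AT3G09540 was 2.48 lower, AT3G55760 2.34 lower (adjusted p = 0.000234), AT5G13200 1.82 lower and XTH20 1.61 lower. CCT2, which encodes an enzyme of phosphatidylcholine synthesis, was 1.30 lower (adjusted p = 0.0151), BGLU15, a beta-glucosidase gene, 1.39 lower (adjusted p = 0.0136) and the cystatin gene CYS1, for an inhibitor of cysteine proteases, 1.11 lower (adjusted p = 0.00801). AT3G09540, CCT2, BGLU15 and CYS1 were chosen after their values were seen. The 4 classical targets were not called there: COR15B differed by 0.06, COR47 by -0.43, COR15A by -0.63 and LTI30 by -0.63. Of the 114 features lower in CBF2OX, 3 were higher in cold CBF2Δc (2.63%, against 0.391%), 1 of them the CBF2 construct probe set. The count of 37 leaned on line DN96. It was 22 without replicate 3 and 23 without replicate 4 of cold CBF2Δc, but 36 or 47 without replicate 1 or 2, of line DN89. With only these groups fitted it was 7. For AT3G55940, AT3G55760, AT5G13200 and XTH20 the cold DN96 samples lay below the cold DN89 samples. AT3G55940, for example, was at 3.77 and 5.0 in DN89 and at 2.88 and 2.75 in DN96.

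**Figure D5:**
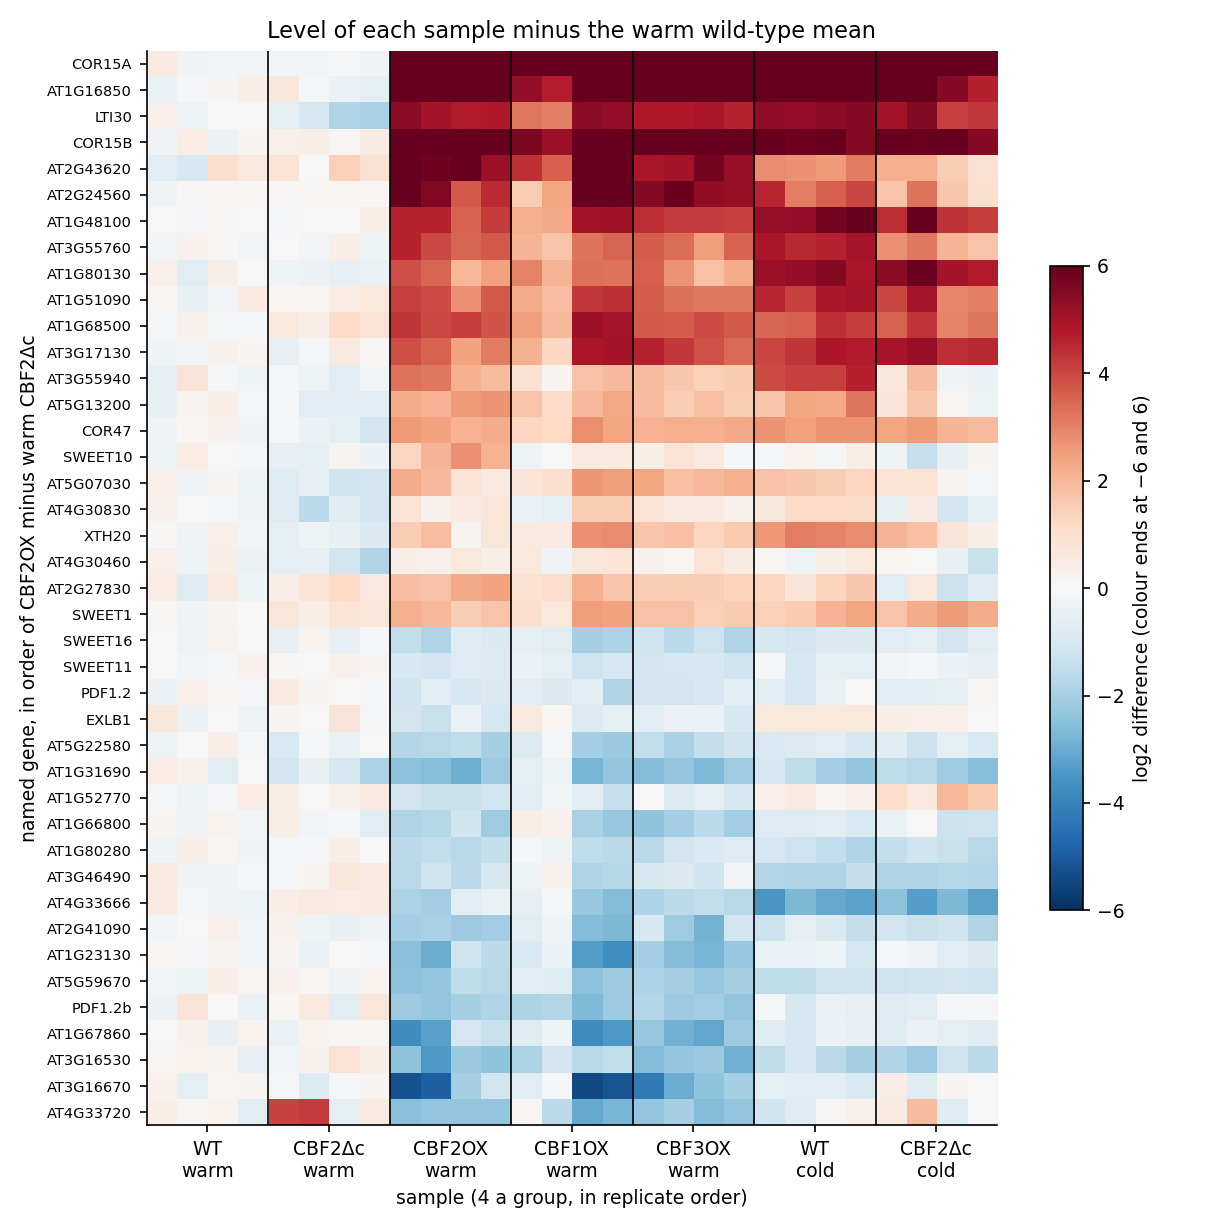
Level of each of 28 samples minus the warm wild-type mean (log2, colour limited to -6 and 6), for a picked part of the called named genes. These were called between CBF2OX and warm CBF2Δc, picked by the naming rule given under data processing, and are in order of that difference. The rule favours large differences, and the other called named genes are not shown. For the genes shown, the 4 warm CBF2Δc columns are mostly pale beside those of the 3 overexpressors. Exceptions include LTI30, AT1G31690, AT4G30830, AT4G30460 and the DN89 samples of AT4G33720.

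The lines of a construct differed from each other, and more features were called with E2 alone than with E24 alone. Between E2 and E24, 334 of all 14578 features differed by limma's adjusted p and at least 2-fold, and 64 of the 362 did. Between DN89 and DN96, 133 of all 14578 features differed in this way, and 16 of the 362 did. E2 was above E24 in 190 of the 248 features higher in CBF2OX (median 0.36) and below it in 92 of the 114 that were lower (median -0.57). The same count over all features was not made. Against all 4 CBF2Δc samples, E2 alone gave 326 higher and 330 lower and E24 alone 150 and 44. The CBF2 construct probe set differed by 0.24 between E2 and E24 (adjusted p = 0.811) and by -0.54 between DN89 and DN96 (adjusted p = 0.748). The count of features lower in CBF2OX was 62 without replicate 1, 65 without replicate 2 and 193 without replicate 3 of CBF2OX, and in CBF2OX against warm wild type it was 64, 65 and 188. All 15 genes with the highest differences kept their call in every one of the 24 alternatives run. They were chosen for large differences in these same samples, which made that likely from the start. Among all 46 called features named, 24 kept their call throughout.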

How the data were processed

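Biotin-labelled RNA from 28 samples was hybridised to an Affymetrix Arabidopsis array. What the authors deposited is a log2 level for each probe set from GCRMA; GCRMA and limma are named, without versions, per the submitters' processing notes. The sources used here do not state the probe definition or joint processing. The values span 2.16 to 14.53, from which the log base was inferred. The lowest value held 11.6% of all values. The number of arrays limits the precision; array medians ran from 4.98 to 5.08.

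Of 22810 probe sets, 13513 had 1 gene in the platform annotation, 503 several and 8730 none; 64 controls were left out. Gene identifiers were updated through RefSeq's TAIR10.1 table, which held 13436 of the 13513, and plastid genes were taken by its chromosome entry. A gene's probe set with the highest mean was kept, and features above 4 in at least 4 arrays were tested (7898 named genes, 6680 unnamed). limma 3.58.1 (lmFit, eBayes, R 4.3.3) fitted 1 mean per group over all 28 samples. The test was tried on simulated data. Python 3.11.15, pandas 2.3.3, numpy 2.4.6 and matplotlib 3.10.9 made tables and figures.

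Named were the 15 highest and 15 lowest called named genes without overlap between groups, up to 4 called members per list, 5 in either direction for CBF2Δc against wild type, the 2 highest and 2 lowest unnamed probe sets, any called between CBF2Δc and warm wild type, and the construct probe sets. Other genes given with values, uncalled list members included, were chosen after their values were seen. The comparison, its members and all gene lists were chosen with earlier results of these data known. Alternatives numbered 24, and 20 that leave out samples of the other groups were chosen after seeing the data. Replicate numbers were not used to pair the samples, as the labels do not say that they mark a shared batch.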

Additional observations from a re-analysis of the deposited data

Results flagged for a closer look

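Single samples stood apart from the other 3 of their group for some of the 49 features named, by Dixon's criterion at the 95% level. This held for 13 of 147 combinations of a feature and a group, and chance alone gives about 1 in 20. The CBF2OX samples were replicate 1 for AT4G33720 (2.70), replicate 2 for AT3G16530 (4.09) and replicate 3 for 264511_at (10.6). The CBF2Δc samples were replicate 1 for AT5G13200 (5.75) and for the probe set that follows the CBF1 construct (2.19) and replicate 3 for COR15A (4.40). The warm wild-type samples were replicate 1 for COR15A (5.01), AT2G24560 (2.37), AT4G33666 (10.63) and AT3G46490 (5.13), replicate 2 for AT1G68500 (5.31) and AT3G16670 (8.01), and replicate 4 for AT3G16530 (7.05). Of these, AT4G33720, AT2G24560, the probe set that follows CBF1 and the CBF2Δc value of COR15A lie near the background level, where small gaps fill most of a group's range.

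Lines of a construct differed by limma's test for 13 named features. E2 was above E24 for AT2G24560 (1.82), AT1G80130 (1.44), AT5G07030 (1.38), XTH20 (1.24), AT3G55940 (1.21) and AT1G16850 (1.04), all higher in CBF2OX than in CBF2Δc. E2 was below E24 for AT3G16670 (-3.50), AT1G67860 (-2.33), AT4G33666 (-1.44) and AT1G23130 (-1.34), all lower in CBF2OX. DN89 was above DN96 for AT4G33720 (4.13), 246481_s_at (2.43) and LTI30 (1.09).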

How the results depend on the processing

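Of 1175 values for the named features under the alternatives, 1047 kept direction and side of the threshold, 122 lost the call, 6 gained it and none changed direction; 24 of the 46 called features kept their call throughout. For CBF2OX minus CBF2Δc (248 higher, 114 lower), adjusted p alone gave 410 and 383, line means as samples 88 and 13, E24 alone 150 and 44, DN89 alone 164 and 71, and E2 alone 330 lower; leaving out 1 sample gave 185 to 266 and 62 to 193. Line as a random block (correlation 0.199) gave 218 and 85. For CBF2OX minus warm wild type (249 and 115), adjusted p alone gave 447 and 290, E24 alone 155 and 40, E2 alone 309 lower, the line block 49, line means 40 and no detection filter 71 lower; 1 sample left out gave 207 to 275 and 64 to 188. For CBF2Δc minus warm wild type (2 and 1), only the groups compared gave 1 and 0, DN96 alone 12 and 34, and 1 sample left out 1 to 3 and 1. Of the 248, CBF1OX raised 24 with only the groups compared, 104 with line means and 98 to 198 with 1 sample left out; of the 114 it lowered 4, 13 and 13 to 69, 17 with the line block and 21 without the filter. CBF3OX lowered 49 of the 114 with line means (68 to 80 with 1 sample left out). In cold CBF2Δc, 7 of the 248 were lower with only the groups compared, 20 with the line block, 19 with line means and 22 to 47 with 1 sample left out. Leaving out 1 sample gave 170 to 179 of the 248 raised in CBF3OX, 153 to 158 raised and 52 to 54 of the 114 lowered in cold wild type. The replicate block gave 243 and 107. Deviations of same-numbered samples correlated at -0.082 to -0.037 and of others at -0.031 to 0.070. All same-numbered values were thus the lower ones, and the check does not settle whether the numbers mark a batch. The numbers were taken as names because the labels state no shared batch. Fewer samples in a fit leave less to estimate the spread; other causes were not tested. Values near the background level limit the fold changes of dim features, and 2 lines a construct limit how far the result reaches beyond them.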

Other observations

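Called genes were also looked at by their order along the chromosomes, taken from RefSeq's TAIR10.1 table. The order placed 7721 named genes, of which 162 were called. Among 2448 pairs of adjacent named genes that were both tested, 101 held a called gene and 6 held a pair of called genes. Whether 6 is more than chance gives was not tested. The genes of each pair differed in the same direction. Called named genes were mostly higher in CBF2OX (122 against 41 lower), so nothing is read from that. They were COR15B and COR15A (5.88 and 8.40, CBF2OX minus CBF2Δc on the log2 scale), AT1G16840 and AT1G16850 (1.21 and 7.49), AT1G73470 and AT1G73480 (1.42 and 2.15), AT5G62350 and AT5G62360 (1.30 and 1.33), AT3G57020 and AT3G57030 (1.16 and 1.02), and AT5G59670 and AT5G59680 (-2.08 and -1.03). Some adjacent genes are tandem copies whose probe sets may share signal, and this was not tested.

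AT1G73470, chosen after its values were seen, was 1.42 higher in CBF2OX than in CBF2Δc (limma adjusted p = 4.82e-06) and differed from warm wild type by 0.18 in CBF1OX, 0.42 in CBF3OX and -0.14 in the cold. The transcription factor gene bZIP44 was 1.16 higher (adjusted p = 0.00106), and the ubiquitin ligase gene PUB22 1.1 higher (adjusted p = 0.00814). Neither was called in CBF1OX (0.75 and 0.98) or CBF3OX (0.93 and 0.71), and in cold wild type bZIP44 rose by 2.44 while PUB22 differed by -0.64. Both were chosen after their values were seen.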
